A study of Homo sapiens with 4 samples.

Results

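The DLK1-MEG3 region is an imprinted stretch of the long arm of chromosome 14, and its RNA was described here in imatinib-sensitive TF1-BA cells and imatinib-resistant TF1-BAR cells. Its members were taken as all genes of any biotype that the deposited table places on chromosome 14 (GRCh38) with a start between 100.7 and 101.1 Mb. This gave 75 of the 32673 listed genes, namely 3 MEG genes (MEG3, MEG8 and MEG9), 2 protein-coding genes (DLK1 and RTL1), 35 miRNA genes, 31 snoRNA genes and 4 other noncoding genes. The members were chosen by position, but the region itself was selected from the difference between TF1-BAR and TF1-BA cells in the same 4 libraries. The levels of its members are therefore a description without a test.

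TF1 is a human myeloid leukaemia line with erythroid features that depends on GM-CSF. Both groups carry BCR-ABL, the fusion kinase of chronic myeloid leukaemia, brought in with a retrovirus. TF1-BAR cells were derived from TF1-BA cells by months of continuous exposure to imatinib, an inhibitor of that kinase. Per the labels, TF1-BAR cells were cultured with 2 μM imatinib, and no imatinib is given for TF1-BA cells. Both were cultured with GM-CSF, for which the labels and the study's methods give different concentrations. The acquired state and the drug in the medium cannot be told apart. The TF1-BAR libraries also carry the word vector in their titles, and the labels do not say whether these cells held a vector that TF1-BA cells lacked, which could not be told apart from resistance either. Parental TF1 cells are not among the 4 libraries, each group is 1 cell line, and the sources used here do not say whether either line is a single clone. The study's methods describe mRNA sequencing. Each group had 2 libraries of total RNA from 10000000 cells each. The labels do not say that these came from separate cultures, so the spread between them may be technical. In bulk RNA, more cells that express a gene and more RNA of that gene per cell cannot be told apart.

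Imprinted genes are expressed from the chromosome of 1 parent. In this region DLK1, which encodes a Notch-like surface protein of progenitor cells, and RTL1, a gene derived from a retrotransposon, are expressed from the paternal chromosome. The noncoding genes are expressed from the maternal one, as long transcripts that run through MEG3, MEG8, the C/D box snoRNAs, a large miRNA cluster and MEG9. DNA methylation of an intergenic control region and of the MEG3 promoter keeps the maternal genes silent on the paternal chromosome, and loss of MEG3 RNA has been described in myeloid malignancies.

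The mature miRNAs of the 7 miRNA genes with at least 10 fragments over the 4 libraries are shown first, because the miRNA genes are the class with the largest fold difference in summed FPKM. The sequences are those of RefSeq (GRCh38.p14), written 5′ to 3′, with the seed (bases 2 to 8), which pairs with target RNAs, in capitals.
hsa-miR-770-5p: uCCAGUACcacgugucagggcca
hsa-miR-496: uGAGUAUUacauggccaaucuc
hsa-miR-377-5p: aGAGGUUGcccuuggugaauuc
hsa-miR-377-3p: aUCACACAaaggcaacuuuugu
hsa-miR-541-5p: aAAGGAUUcugcugucggucccacu
hsa-miR-541-3p: uGGUGGGCacagaaucuggacu
hsa-miR-409-5p: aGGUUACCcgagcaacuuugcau
hsa-miR-409-3p: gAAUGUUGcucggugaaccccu
hsa-miR-410-5p: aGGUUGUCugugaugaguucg
hsa-miR-410-3p: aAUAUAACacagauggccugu
hsa-miR-656-5p: aGGUUGCCugugagguguuca
hsa-miR-656-3p: aAUAUUAUacagucaaccucu

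These 12 mature sequences have 12 different seeds. Over the whole region, 33 of the 35 miRNA genes matched a RefSeq hairpin, all 33 with the same start and end as in the table, and the 61 mature sequences have 53 different seeds. The seed of hsa-miR-410-5p is shared with hsa-miR-323b-5p and hsa-miR-494-5p of the same region, and 7 seeds are shared in all. The libraries measured RNA longer than mature miRNAs, so a value of a miRNA gene below is that of RNA overlapping its hairpin and not of the mature miRNA.

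The snoRNA genes of the region are of the C/D class, which guides the methylation of other RNAs, and their sequences were read from the GRCh38 genome at the listed positions. A C box (TGATGA) in the first 20 bases and a D box (CTGA) in the last 15 bases were searched on the gene's own strand, and 19 of the 31 genes held both (61.3%), and so did 51 of the 84 other genes of the table named SNORD, the C/D class (60.7%). SNORD114-10 is shown because it had the most fragments of the snoRNA genes, SNORD113-1 as an upstream member with both boxes, and SNORD113-2 because it held neither box in this spelling. The boxes are in capitals.
SNORD113-1: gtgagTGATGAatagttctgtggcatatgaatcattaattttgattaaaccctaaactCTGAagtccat
SNORD113-2: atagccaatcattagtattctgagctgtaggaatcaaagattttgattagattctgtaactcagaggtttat
SNORD114-10: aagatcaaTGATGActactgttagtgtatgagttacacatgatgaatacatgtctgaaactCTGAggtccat

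The MEG3 promoter of RefSeq (chr14:100825858-100826157, plus strand, GRCh38.p14) is shown because MEG3 holds most of the RNA of the region. It lies inside the MEG3 gene of the deposited table, which begins upstream at 100779410. Capitals mark TGACGTCA, the palindromic cAMP response element, and the reverse complement of TGCCGC, the motif of the imprint-keeping zinc finger protein ZFP57.
MEG3 promoter: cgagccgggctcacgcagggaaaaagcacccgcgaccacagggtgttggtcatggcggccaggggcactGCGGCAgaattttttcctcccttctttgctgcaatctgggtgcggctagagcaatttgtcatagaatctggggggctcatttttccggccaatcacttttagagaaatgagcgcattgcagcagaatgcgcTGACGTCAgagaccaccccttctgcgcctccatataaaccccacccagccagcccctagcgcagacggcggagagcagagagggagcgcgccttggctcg

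Both strands were searched. TGACGTCA was held by 1.85% of the 35116 promoters of the same length, and TGCCGC by 16.7%. The promoters of MEG9 and RTL1 held neither string of letters. The 2 motifs do not overlap in the MEG3 promoter, and a match describes the sequence only.

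The long noncoding genes are described first. Of the 67 members with a fragment, 21 had both TF1-BAR libraries above both TF1-BA libraries and 6 had them below, where 30.8% and 19.9% of all listed genes with a fragment did so. Among all genes with a mean of at least 0.5 FPKM, these shares were 40.9% and 28.4%. Since the region was chosen from this contrast, nothing is read from these counts. MEG3, a long noncoding RNA of maternal expression, is listed at chr14:100779410-100861031 on the plus strand. Its level was 71.0 and 80.6 FPKM (fragments scaled to transcript length and library size) in the TF1-BA libraries, against 147 and 162 FPKM in the TF1-BAR ones. Both TF1-BAR libraries lay above both TF1-BA libraries, with means of 75.8 ± 6.81 and 155 ± 10.3 FPKM (SD, n = 2 each), a 2.04-fold higher mean. On the log2(FPKM + 0.5) scale used for all differences below, this is 1.03. These levels rest on 20188, 19652, 36605 and 41041 fragments, between 97.5% and 98.0% of all fragments of the region in each library. Among the 3590 long intergenic noncoding genes of the table, MEG3 had rank 4 by FPKM in both TF1-BA libraries, and ranks 3 and 2 in the TF1-BAR ones.

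MEG9 is the long noncoding gene at the far end of the region (chr14:101069911-101072937). It was measured at 3.42 and 3.11 FPKM in TF1-BA cells and at 6.68 and 7.63 FPKM in TF1-BAR cells. Again the groups did not overlap, and the mean was 2.19-fold higher (3.27 ± 0.220 against 7.16 ± 0.674 FPKM, SD, n = 2 each), a log2 difference of 1.02. The fragment numbers were 163, 127, 278 and 324.

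MEG8 (chr14:100894770-101027415) hosts the snoRNAs and lies between MEG3 and MEG9. Its level was 1.10 and 1.01 FPKM in TF1-BA cells and 1.98 and 1.29 FPKM in TF1-BAR cells. The groups did not overlap, but the TF1-BAR libraries stood apart from each other, and the log2 difference of 0.44 was smaller than for MEG3 and MEG9. Over the settings tried for the analysis, the log2 difference ranged from 0.93 to 1.12 for MEG3 and for MEG9, and from 0.21 to 0.68 for MEG8. Summed, the 3 MEG genes reached 75.5 and 84.7 FPKM in TF1-BA cells and 156 and 171 FPKM in TF1-BAR cells.

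**Figure D1:**
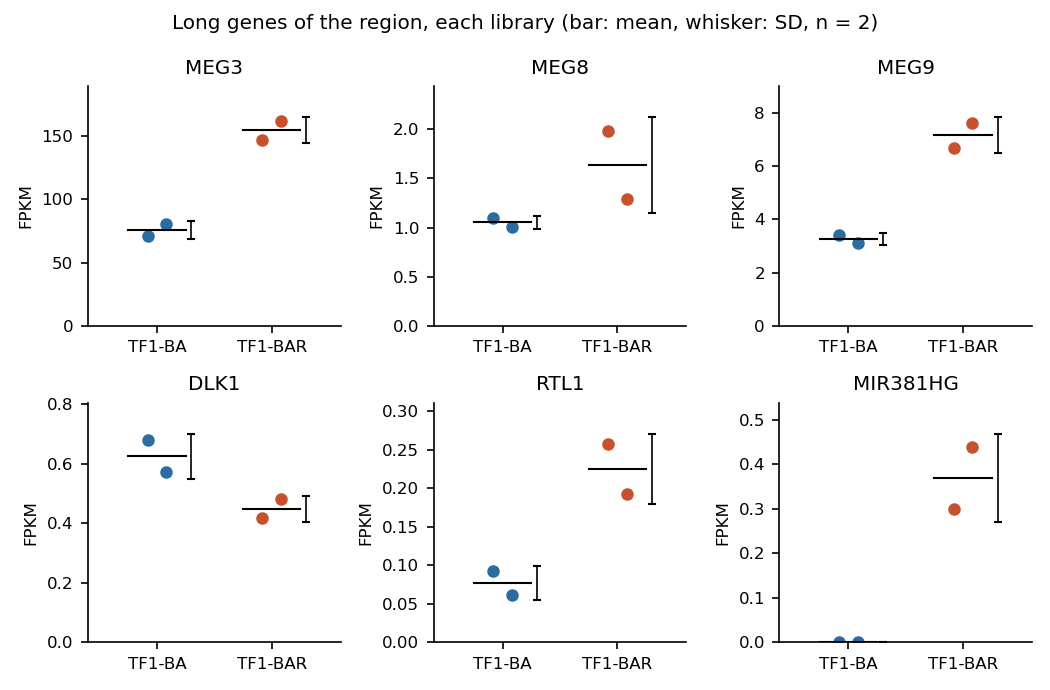
FPKM of the MEG genes, DLK1, RTL1 and MIR381HG in each of the 4 libraries (points), with the group mean (horizontal bar) and SD (whisker, n = 2); the y axes start at 0 and differ between panels. The TF1-BAR libraries lie above the TF1-BA libraries for MEG3, MEG8, MEG9, RTL1 and MIR381HG and below them for DLK1, and MIR381HG is at 0 in both TF1-BA libraries.

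The coding genes were low, and DLK1 and RTL1 went in opposite directions. DLK1 (chr14:100725705-100738224, plus strand) was measured at 0.678 and 0.572 FPKM in TF1-BA cells and at 0.418 and 0.480 FPKM in TF1-BAR cells, from 65, 47, 35 and 41 fragments. Both TF1-BAR libraries lay below both TF1-BA libraries, with a log2 difference of −0.24, which stayed between −0.48 and −0.16 over the settings tried.

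RTL1 (chr14:100880655-100884847, minus strand) had 7 and 4 fragments in TF1-BA cells and 17 and 13 in TF1-BAR cells. Its mean of 0.225 FPKM in TF1-BAR cells was 2.92-fold that in TF1-BA cells (0.0771 FPKM). Maternal RNA antisense to RTL1 covers the same bases, and whether fragments were counted by strand is not given in the sources used here. The 2 RNAs cannot be told apart in this value. The sum of the coding genes was 0.771 and 0.634 FPKM in TF1-BA cells and 0.675 and 0.673 FPKM in TF1-BAR cells, and these ranges overlap.

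Of the 5 classes, the miRNA genes had the largest fold difference in their FPKM sum. By fragments the other noncoding genes had a larger ratio (6.19 against 5.30), which depends on the uncertain fragment number of MIR381HG. The FPKM of the miRNA genes summed to 19.7 and 18.0 in the TF1-BA libraries, against 80.7 and 119 in the TF1-BAR ones, a 5.29-fold higher mean (18.8 ± 1.16 against 99.6 ± 26.8, SD, n = 2 each). The sums rest on few fragments, 28 and 25 in TF1-BA cells and 108 and 159 in TF1-BAR cells. The ratio of the fragments per library size was 5.30, with an exact 95% interval of 3.94 to 7.26 that covers counting error only. The number of the 35 genes with a fragment was 11 and 7 in TF1-BA cells, against 19 and 28 in TF1-BAR cells. Fragments were seen in TF1-BAR cells alone for 20 genes and in TF1-BA cells alone for 2 genes (MIR665 and MIR485).

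MIR770 lies inside an exon of MEG3. It had 4 and 14 fragments in TF1-BA cells and 31 and 40 in TF1-BAR cells (5.75 ± 4.93 against 22.7 ± 3.76 FPKM). MEG3 and MIR770 overlap, and how the counting shared their fragments is not given in the sources used here, so the value of MIR770 is uncertain and may be RNA of MEG3. Without MIR770, the other 34 miRNA genes had 24, 11, 77 and 119 fragments, a 5.87-fold higher mean FPKM.

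The remaining miRNA genes with 10 or more fragments all lie close together at the end of the cluster, between 281 and 287 kb downstream of the listed start of MEG3. MIR656, the last hairpin before MEG9, had 11 and 5 fragments in TF1-BA cells and 17 and 35 in TF1-BAR cells, a 3.49-fold higher mean FPKM. MIR410 had 3 and 0 fragments against 11 and 17. In both, the TF1-BAR libraries lay above the TF1-BA libraries.

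MIR541 had 1 fragment in each TF1-BA library, against 16 and 5 in TF1-BAR cells, and MIR409 had 1 in each against 4 and 12. MIR377 was at 2 and 1 against 5 and 6 fragments, and MIR496 at 0 and 2 against 5 and 4. None of these 4 genes overlapped between groups, and each has fewer than 10 fragments in total in TF1-BA cells. The log2 differences of these 6 genes (MIR656, MIR410, MIR541, MIR409, MIR377 and MIR496) lay between 1.66 and 3.31, and none changed sign over the settings tried, but they moved widely. MIR410 ranged from 2.13 (without TF1-BA replicate 2) to 4.54 (with a pseudocount of 0.1 FPKM) and MIR496 from 0.88 (without TF1-BA replicate 1) to 2.95 (with the same pseudocount). The other 4 ranged from 1.20 to 2.19 for MIR656, 1.79 to 3.37 for MIR541, 1.56 to 2.98 for MIR409 and 1.38 to 1.94 for MIR377, with both ends set by leaving out 1 library except the upper end of MIR377. MIR770 ranged from 1.24 without TF1-BA replicate 1 to 3.06 without TF1-BA replicate 2.

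The position within the cluster went with the number of fragments, as the plot of fragments along the region shows. The first 10 genes of the cluster, from MIR380 to MIR1185-2, had 0 fragments in both TF1-BA libraries, against 5 and 11 in TF1-BAR cells. The next 20 genes, from MIR487B to MIR656, had 23 and 11 against 71 and 107. The 5 miRNA genes upstream of the cluster had 5 and 14 against 32 and 41, nearly all of it from MIR770.

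**Figure D2:**
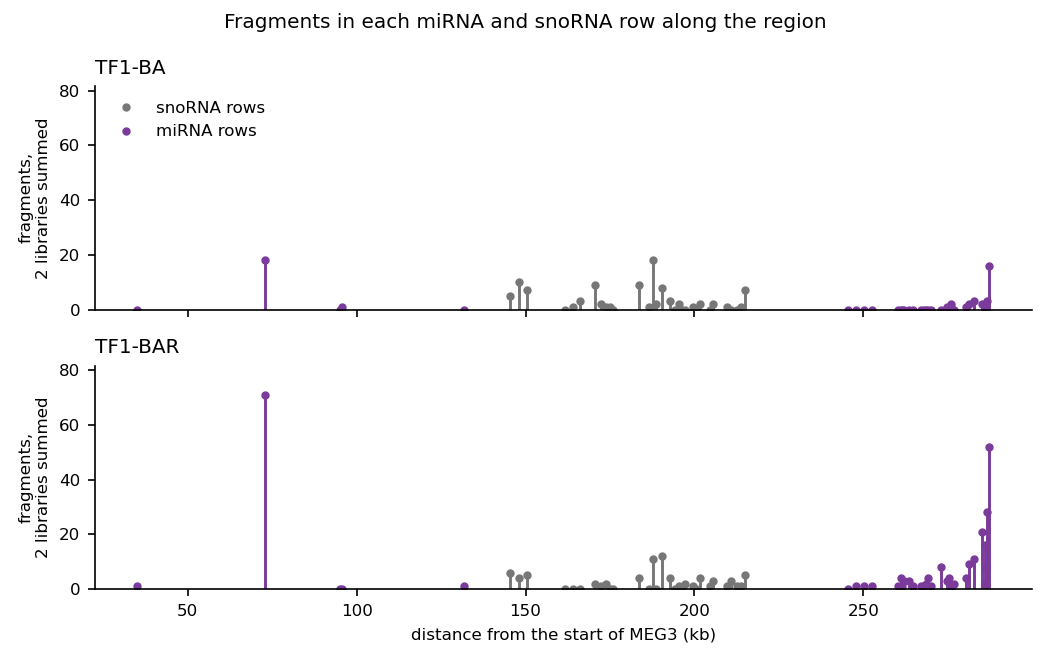
Fragments of each miRNA gene (purple) and snoRNA gene (grey), summed over the 2 libraries of TF1-BA cells (top) and of TF1-BAR cells (bottom), against the distance from the listed start of MEG3 in kb, on the same y scale. MIR770 at 73.0 kb has 18 and 71 fragments and MIR656 at 287 kb has 16 and 52, while SNORD114-10, the snoRNA gene with the most fragments over the 4 libraries, has 18 and 11.

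Other miRNA genes of the table were also higher in sum, by a smaller factor. Outside the region, miRNA genes summed to 591 and 564 FPKM in TF1-BA cells and 845 and 896 FPKM in TF1-BAR cells, 1.51-fold higher. The region gave 2.96% and 3.19% of the fragments of all 432 miRNA genes in TF1-BA cells and 8.64% and 11.3% in TF1-BAR cells. Both TF1-BAR libraries lay above both TF1-BA libraries for 15 of the 33 region miRNA genes with a fragment, and below them for 0. Among the 341 miRNA genes outside the region with a fragment, these shares were 13.5% and 8.50%.

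The values of the snoRNA genes did not follow those of the MEG genes. They come from fragments that overlap genes shorter than a read. Whether these are of the snoRNAs themselves or of longer RNA cannot be told apart. All 31 snoRNA genes lie inside MEG8, and their FPKM summed to 35.4 and 43.6 in TF1-BA cells and 41.6 and 22.2 in TF1-BAR cells. The ranges overlap, and the log2 difference of the sum was −0.36 from 47, 49, 48 and 26 fragments. It was −0.81 without TF1-BAR replicate 1 and turned to 0.08 without TF1-BAR replicate 2. The fragment ratio was 0.811 with an exact 95% interval of 0.591 to 1.11 for counting error. No snoRNA gene had both TF1-BAR libraries above both TF1-BA libraries, while 4 had them below. Of the 231 snoRNA genes outside the region with a fragment, 15.2% had both TF1-BAR libraries above and 15.2% had them below. Their sum was 1.04-fold that in TF1-BA cells.

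SNORD114-10 had 8, 10, 8 and 3 fragments in the TF1-BA and then the TF1-BAR libraries, and SNORD114-13 had 3, 5, 8 and 4. SNORD113-2 had 5 fragments in each TF1-BA library and 2 in each TF1-BAR library. SNORD114-7 had 6 and 3 against 2 and 2, and SNORD114-1 had 2 and 7 against 1 and 1. These last 3 are the genes with 10 or more fragments in which TF1-BAR cells were lower in both libraries. SNORD113-1 had 0, 5, 4 and 2 fragments, SNORD113-3 had 2, 5, 4 and 1, and the SNORD113 copy ENSG00000222095 had 6, 1, 1 and 4. In these 3 genes the replicates differed as much as the groups, and their log2 difference changed sign under some settings. The SNORD113 series summed to 18, 16, 12 and 9 fragments and the SNORD114 series to 29, 33, 36 and 17. The copies of each series are alike in sequence, so the assignment of fragments to single copies is uncertain.

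**Figure D3:**
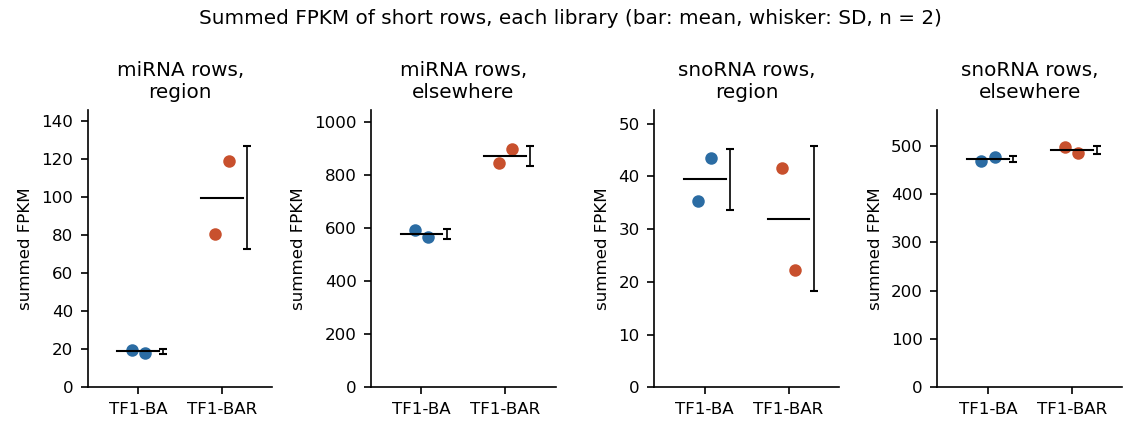
Summed FPKM of miRNA genes and of snoRNA genes, inside the region and elsewhere in the genome, in each library (points), with the group mean (bar) and SD (whisker, n = 2), on y axes that start at 0 and differ between panels. The miRNA genes of the region are 5.29-fold higher in TF1-BAR cells and those elsewhere 1.51-fold, while the snoRNA genes of the region overlap between the groups.

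The position of the small RNA genes within the long transcripts differs. In the GENCODE 44 annotation, 12 of the snoRNA genes overlap an exon of at least 1 MEG8 transcript and 19 lie in introns only. Of the miRNA genes, 7 overlap an exon of at least 1 MEG9 transcript, 15 lie in MEG9 introns, 5 in MEG8 introns, 1 in a MEG3 exon and 1 in a MEG3 intron, and 6 in none of these genes. The deposited table lists a shorter MEG9 that starts behind MIR656, so these miRNA genes do not overlap MEG9 as counted. The miRNA genes are 61 to 102 bp long and the snoRNA genes 69 to 89 bp, shorter than the 150-bp reads. Their FPKM move in large steps, since few fragments stand behind each value.

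Of the other noncoding genes, MIR381HG stood out. It is a host gene of miRNAs in the middle of the cluster (chr14:101045157-101051795). It was at 0 FPKM in both TF1-BA libraries, against 0.299 and 0.439 FPKM in TF1-BAR cells. At a length of 6375 bp these are 30 and 45 fragments, but a shorter length gives fewer whole fragments in the same ratio. The FPKM do not fix the fragment number, so no fold difference is given. AL117190.1, a long noncoding gene that overlaps MEG3 and MEG8, was at 0.0838 and 0.130 FPKM against 0.224 and 0.157 FPKM. Its 6 and 8 against 14 and 10 fragments carry the same limit. AL117190.3 had 2, 1, 0 and 1 fragments and AL132709.1 had none. The FPKM sum of the 4 genes overlapped between the groups and is set by the 87-bp gene AL117190.3. Their fragments, 8 and 9 against 44 and 56, depend on the lengths taken for MIR381HG and AL117190.1.

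Across the whole table, genes were called when the absolute log2 fold change was at least 1 and limma's adjusted p under 0.05, which held for 4.75% of the 15519 genes tested (3.05% higher and 1.69% lower in TF1-BAR cells). Since the region was chosen from this contrast, the calls of its members are a description, and nothing is read from their number. Of the 75 members, 67 had a fragment in any library and 37 passed the filter of a mean of 0.5 FPKM, among which 12 were called higher and 1 lower. Of the called members, 5 had 0 fragments in both TF1-BA libraries and passed the filter only through their TF1-BAR values (MIR1185-1, MIR300, MIR544A, MIR487A and MIR369). The called members were MEG3, MEG9, MIR1185-1, MIR300, MIR544A, MIR487A, MIR369, MIR377, MIR541, MIR409, MIR410 and MIR656, all higher, and SNORD113-2, lower. Only 6 of the 13 had 10 or more fragments in any library. With limma voom on the fragments, which weights genes by their counts and called 7.40% of all genes tested, 9 members were called and 8 of these were among the 13. Leaving out a library leaves 1 library in its group, so that the spread comes from the other group alone, and fewer calls follow in part from that design. Without TF1-BA replicate 2, 1 member was called, which was not among the 13 (0 shared). Without TF1-BA replicate 1, 4 were called, 2 of them among the 13, and without TF1-BAR replicate 2, 7 were called, 6 of them among the 13. Without TF1-BAR replicate 1, 13 members were called and 10 of these were shared.

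The edges of the region were set by position and not by level. Just inside lie DLK1 and AL132709.1. Just outside, LINC00523 had 4, 7, 9 and 9 fragments and AL132711.1 had 12, 13, 9 and 4 on the DLK1 side. On the MEG9 side, LINC02285 was measured at 9.58 and 7.75 FPKM in TF1-BA cells and 11.8 and 13.3 FPKM in TF1-BAR cells, and AL355836.1 had at most 2 fragments in a library.

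The protein-coding neighbours differed among themselves. Of 13 coding genes that start within 1 Mb on either side, 10 passed the filter and 0 were called by limma (6 had an unadjusted p under 0.05, as had 42.2% of all genes tested), and none was higher in TF1-BAR cells at an adjusted p under 0.05 either (0 genes). At that adjusted p without the fold threshold, which 26.9% of all genes tested passed, 5 of the 10 fell, and 5 did not pass. For 40.9% of all genes tested, both TF1-BAR libraries lay above both TF1-BA libraries. This also held for 3 of the 5 neighbours that did not pass (BEGAIN, EVL and YY1, named after their values were seen). Their log2 fold changes were 0.34, 0.20 and 0.11 (limma adjusted p = 0.0767, 0.120 and 0.309), and BEGAIN was the 1 gene higher at an unadjusted p under 0.05. Among those that fell were WARS, the tryptophanyl-tRNA synthetase (237 ± 12.8 to 151 ± 8.11 FPKM, log2 fold change −0.65 ± 0.07 SE, limma adjusted p = 0.00774), and HSP90AA1, the inducible HSP90 chaperone (−0.65 ± 0.11 SE, limma adjusted p = 0.0185). DEGS2, a sphingolipid hydroxylase, fell by 0.77 on the log2 scale (limma adjusted p = 0.0209) and WDR25 fell by 0.47 (limma adjusted p = 0.0310). DEGS2 passed the fold threshold as well with a pseudocount of 0.1 FPKM and with limma voom (−1.08). EML1, SLC25A47 and DIO3, the deiodinase gene of the imprinted domain that lies outside this window, did not pass the filter. The median log2 fold change of these 10 genes was −0.24. That of the 538 tested genes of chromosome 14 outside the region, these 10 included, was 0.02, and that of all tested genes 0.07.

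**Figure D4:**
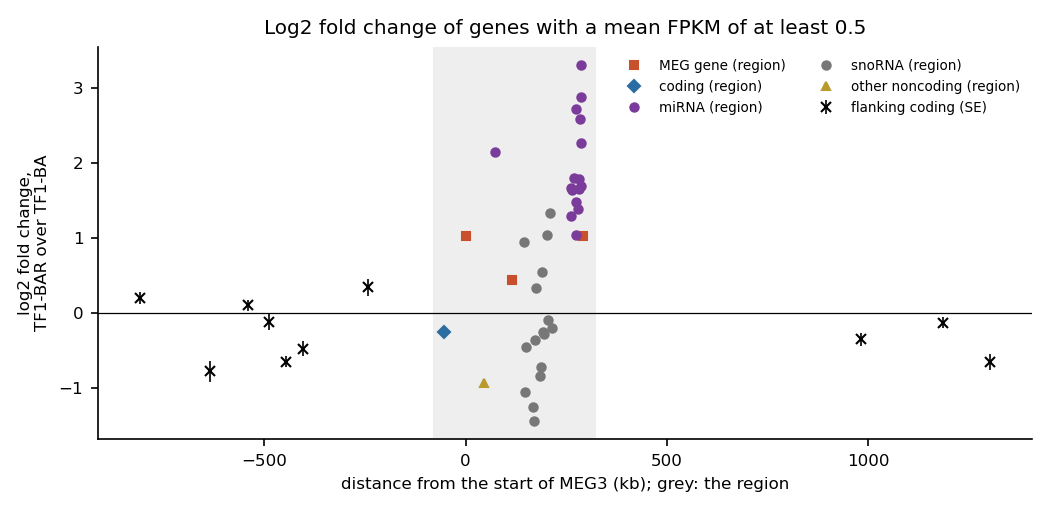
Log2 fold change (TF1-BAR over TF1-BA, log2(FPKM + 0.5)) of region members with a mean of at least 0.5 FPKM (coloured by class, no error bars since they are a description) and of the flanking coding genes (crosses with SE), against the distance from the listed start of MEG3 in kb, with the region shaded. MEG3 and MEG9 sit at 1.03 and 1.02, and the plotted miRNA genes lie mostly above them. Of these, MIR376B, MIR300, MIR1185-1, MIR544A, MIR487A and MIR369 have 0 fragments in both TF1-BA libraries and passed the filter only through TF1-BAR cells, so they had to lie high. The snoRNA genes scatter on both sides of 0, and the flanking genes lie between −0.77 and 0.34.

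Genes that act on imprints and on the small RNAs of the region were compared next. Imprint maintenance was represented by 21 genes for DNA methylation, its removal and the proteins that guard imprints, of which 18 passed the filter and 12 did not pass the adjusted p. AFF3, a protein bound at the intergenic control region of the domain, rose from 1.48 ± 0.118 to 3.58 ± 0.118 FPKM (SD, n = 2 each), with a log2 fold change of 1.04 ± 0.11 SE (limma adjusted p = 0.00685). TET1, which oxidises methylated cytosine, fell from 3.31 ± 0.244 to 1.39 ± 0.215 FPKM, a log2 fold change of −1.01 ± 0.13 SE (limma adjusted p = 0.0103). These were the called genes of the list, 1 higher and 1 lower, and each lost its call under 5 of the 13 other settings, 3 of them with 1 library left out and a log2 fold change between 0.90 and 1.10 in size. Over all genes tested, 4.75% were called. Of the 18 genes, 11 had an unadjusted p under 0.05 in limma (42.2% of all genes tested). The adjusted p alone was passed by 26.9% of all genes tested. With the fold threshold set aside, 3 genes of the list were higher and 3 lower in all. They included the de novo methyltransferase DNMT3B (log2 fold change 0.53, limma adjusted p = 0.0244) and UHRF1, the partner of the maintenance methyltransferase, which fell by 0.38 (limma adjusted p = 0.0467, and 0.0506 with the replicate block). ZFP57 and DNMT3L did not pass the filter, and DPPA3 was not analysed here. The median log2 fold change of the list was 0.21.

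Of the 11 genes of microRNA processing, 0 were called by limma or by limma voom, 7 had an unadjusted p under 0.05 (42.2% of all genes tested) and 8 did not pass the adjusted p. That adjusted p was passed by 26.9% of all genes tested. The 3 genes of the list that rose below the fold threshold were DROSHA, the nuclease that cuts hairpins out of long transcripts, DGCR8, its RNA-binding partner, and DICER1, which cuts the hairpin loop. DROSHA went from 11.1 ± 0.109 to 17.9 ± 1.68 FPKM (SD, n = 2 each; log2 fold change 0.67 ± 0.09 SE, limma adjusted p = 0.0108). The log2 fold changes of DICER1 and DGCR8 were 0.47 and 0.44 (limma adjusted p = 0.0152 and 0.0369). PRKRA, a DICER1 partner, had a log2 fold change of −0.34 that did not pass (limma adjusted p = 0.0619).

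Of the 11 genes of the C/D snoRNA particle and its assembly, 0 were called by limma or by limma voom, 4 had an unadjusted p under 0.05 (42.2% of all genes tested) and 9 did not pass the adjusted p. That adjusted p was passed by 26.9% of all genes tested. NOP56, a core protein of the particle, rose by 0.47 on the log2 scale (limma adjusted p = 0.0101). RUVBL2, an ATPase of its assembly, fell by 0.44 (limma adjusted p = 0.0115). RPAP3 and RUVBL1, also of the assembly machinery, had log2 fold changes of −0.40 and −0.22 that did not pass (limma adjusted p = 0.0720 and 0.0783).

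Of the 11 genes around DLK1 and Notch, 8 passed the filter, 6 did not pass the adjusted p and 1 was called. An unadjusted p under 0.05 in limma was found for 4 of the 8. Over all genes tested, 42.2% had such a p, 26.9% passed the adjusted p and 4.75% were called. HEY1, a target gene of Notch, fell from 1.39 ± 0.152 to 0.427 ± 0.132 FPKM (SD, n = 2 each; log2 fold change −1.04 ± 0.19 SE, limma adjusted p = 0.0211). That call was lost with a pseudocount of 1 FPKM (log2 fold change −0.75), with no filter (−1.04) and with TPM (−0.99). With 1 library left out, the log2 fold change of HEY1 lay between −1.18 and −0.89. The receptor NOTCH1 rose below the fold threshold, from 6.36 ± 0.247 to 11.3 ± 1.38 FPKM (log2 fold change 0.77 ± 0.11 SE, limma adjusted p = 0.0114). DLK2, the paralog of DLK1, and HES1, another Notch target, had log2 fold changes of 0.46 and −0.30 that did not pass (limma adjusted p = 0.119 and 0.0644). NOTCH3 and NOTCH4 did not pass the filter, and SOX9 was not analysed here.

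**Figure D5:**
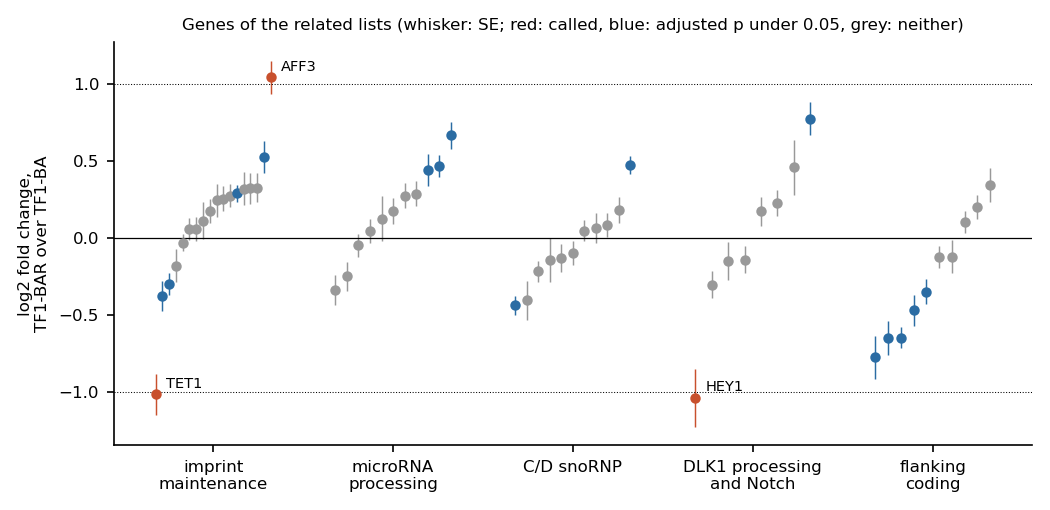
Log2 fold change (TF1-BAR over TF1-BA) of each tested gene in the lists of imprint maintenance, microRNA processing, C/D snoRNA particle, DLK1 and Notch, and flanking coding genes, with SE as whiskers and dotted lines at the fold threshold. AFF3 (1.04) is the called gene above the upper line, TET1 (−1.01) and HEY1 (−1.04) are those below the lower one, and genes with an adjusted p under 0.05 but a smaller change are blue.

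The cells were checked against their labels. All 12 markers of TF1 cells and myeloid or erythroid progenitors passed the filter, and CD34 and KIT, markers of progenitor cells, were among those called higher in TF1-BAR cells. BCR and ABL1, the fusion partners, were at 14.7 and 42.0 FPKM in TF1-BA cells and at 28.6 and 87.1 FPKM in TF1-BAR cells. Among markers of other cells that could add RNA, the summed level of 5 T cell markers was 19.4 to 21.0 FPKM in TF1-BA cells and 5.99 to 6.81 FPKM in TF1-BAR cells, nearly all from CD3D, with CD3E at no more than 1 fragment. The 5 B cell markers, 4 of them in the table, summed to 5.78 to 6.49 and 11.8 to 12.4 FPKM, the 6 monocyte markers, 5 in the table, to 13.9 to 15.5 and 17.1 to 17.9 FPKM, and the 8 stromal and endothelial markers from 24.9 FPKM in the lower TF1-BA library to 30.8 FPKM in the higher TF1-BAR library. CD14 had at most 2 fragments in a library and CD163 at most 1. The genes called in these lists were CD79B, CSF1R, LUM and CDH5, all higher, and CD3D, lower. The part of any such cells in the levels of the region was not tested.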

How the data were processed

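The authors sequenced 2 libraries each of TF1-BA and TF1-BAR cells with 150-bp paired-end reads. The values the authors deposited are FPKM per gene and library for 32673 genes on GRCh38. The submitters' processing notes name TopHat2 2.0.13, Cufflinks 2.2.0 and Cuffdiff 2.2.0. The annotation release, the handling of strand and the assignment of fragments shared by overlapping genes are not given in the sources used here. Groups came from the labels, in which the TF1-BAR libraries carry a vector title.

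Fragments were recovered from the FPKM as FPKM times gene length times library size. The library sizes so found were 18042299 and 15465497 fragments (TF1-BA) and 15761642 and 16074303 (TF1-BAR), of which listed genes carried 98.9% to 99.0%. All 764 to 846 short genes above 0 per library gave whole fragments at their listed length, within 0.0005 fragment, while for 16651 longer genes the length itself was fitted. Intervals from fragments and the floor of 3 fragments cover counting error only. Replicates differed by more than sampling noise (chi-square per degree of freedom 4.18 and 6.77).

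Genes with a mean of at least 0.5 FPKM (15519) were tested with limma 3.58.1 in R 4.3.3 (lmFit, eBayes with trend) on log2(FPKM + 0.5) with Benjamini-Hochberg adjustment, and called where the adjusted p was under 0.05 and the log2 fold change was 1 or more in size. The fit was checked on simulated data. The pseudocount understates changes of low genes. With 2 against 2 libraries, the smallest exact two-sided permutation p for a single value is 0.333. Members and lists were chosen with earlier results of these data known. Named were the coding and MEG genes, other members with at least 10 fragments over all libraries, and per list the called genes and the 4 with the largest absolute log2 fold change. Members called, and those in a count of 5 or fewer, are also named, after their values were seen. The alternatives were pseudocounts of 1 and 0.1 FPKM, a mean of at least 1 FPKM or no filter, upper-quartile scaling, TPM, eBayes without trend, limma voom on the fragments, a replicate block and leaving out each library. Same-numbered libraries deviated with a correlation of 0.0646 over 15519 genes. Some genes of the marker lists are not reported here.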

Additional observations from a re-analysis of the deposited data

How the results depend on the processing

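The sums of the MEG, miRNA and snoRNA genes moved by less than 1 SD between replicates under every alternative that kept all 4 libraries (with 2 libraries per group, leaving out 1 cannot move a sum by more than that SD). The snoRNA difference of −0.36 ranged from −0.81 (without TF1-BAR replicate 1) to 0.08 (without TF1-BAR replicate 2), so 1 library turned its sign. The called genes and the 4 with the largest absolute log2 fold change in each related list kept their direction in every setting. None of them kept an adjusted p under 0.05 in every setting, which follows in part from the fits with 1 library left in a group. BEGAIN, EVL and YY1 were not followed over the settings. The number of called genes in the table was 737, and 487 with a pseudocount of 1 FPKM, 1148 with limma voom and 42 to 783 when 1 library was left out (42 without TF1-BA replicate 2, 144 without TF1-BA replicate 1 and 427 without TF1-BAR replicate 2), where the group with 1 library is assumed to vary like the other group and the loss follows in part from that design. Members called fell from 13 to 5 with no filter, and were 1 to 13 when 1 library was left out. Flanking coding genes called rose from 0 to 1 with a pseudocount of 0.1 FPKM and to 1 with limma voom. Imprint maintenance genes called fell from 2 to 0 with a pseudocount of 1 FPKM, to 1 with upper-quartile scaling and to 1 with TPM, and were 0 to 2 when 1 library was left out. The called gene of the DLK1 and Notch list was lost (0) with a pseudocount of 1 FPKM, a mean of at least 1 FPKM, no filter and TPM (at a mean of at least 1 FPKM it was not tested), and whenever 1 library was left out (0 to 0). The log2 difference of the coding sum was −0.03, and −0.24 over genes with a mean of at least 0.5 FPKM, −0.12 from fragments and 0.33 without DLK1, its larger gene. That of the other noncoding genes was −0.23, and −0.93, 2.55 and 0.80 in the same order, the last without AL117190.3. The value of 2.55 depends on the uncertain fragment number of MIR381HG. Neither of the last 2 sums kept its sign over these settings.

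The replicate numbers share no stated batch. With the replicate block 755 genes and 13 members were called, 12 of these members as in the fit without it. The depth limits single small genes most, since 7 of the 13 called members had fewer than 10 fragments in every library.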
